A study of Mus musculus with 2 samples.

Results

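The insulin-like growth factors and their binding proteins were followed in the kidney through 5 genes: the ligands Igf1 and Igf2 and the binding proteins Igfbp3, Igfbp5 and Igfbp7. The members are these 5 gene symbols, taken with every named probe they have in both arrays. Each had 1 probe, which makes 5 genes of the 9985 with a named probe above 0 in both arrays, on a platform of 20289 probes. Kidney RNA came from 1 Mxi1 -/- mouse, the experiment, and from 1 Mxi1 +/+ mouse, the control. Both mice carry the label 1Y, and each was hybridised to its own single-colour array. The labels give no strain, sex, treatment or construct for either mouse. Mxi1 encodes a partner of MAX that competes with MYC for shared DNA sites.

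IGF-I and IGF-II are small secreted hormones related to insulin. They signal mainly through the type 1 IGF receptor and the insulin receptor to the PI3K, AKT and mTOR kinases, while the type 2 receptor clears IGF-II. Binding proteins hold both ligands in blood and matrix and set how much reaches a receptor. Growth hormone drives IGF-I production in liver and other tissues, and in the kidney IGF-I is known for raising blood flow, filtration and organ growth. Igf2 is an imprinted gene, expressed mainly from the paternal copy and best known for fetal growth.

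All 5 genes read lower in the Mxi1 -/- kidney, by 1.11-fold to 2.07-fold, with a median log2 difference of -0.41. Igfbp5 was the only member past a 2-fold line, a rule of size that stands in for a test here. The 2-fold line on the lower side was passed by 5.59% of all measured genes, and 55.5% of measured genes read lower by any amount (59.9% of those at or above the median level and 49.5% of those below it). The median log2 difference over all measured genes was -0.05. With 1 mouse per genotype there is no spread between animals, so no difference below carries a p-value and the direction of the 5 members is a description of these 2 kidneys.

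The regions just upstream of the start sites are printed for the 3 members with the largest folds, because Mxi1 acts through MAX at DNA sites of the E-box type. RefSeq's table of promoters on GRCm38.p6 matched all 5 members and held 8 start sites for them, 4 of them of Igf2. Capitals mark every CANNTG, the general E-box, and every GGGCGG, the GC box, on either strand.
Igfbp5 promoter, chr1:72874866-72875115, - strand: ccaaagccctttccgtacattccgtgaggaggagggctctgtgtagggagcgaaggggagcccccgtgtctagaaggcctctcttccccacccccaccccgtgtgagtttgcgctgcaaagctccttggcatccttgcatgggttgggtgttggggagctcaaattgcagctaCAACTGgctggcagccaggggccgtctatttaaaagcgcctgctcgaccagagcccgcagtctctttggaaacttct
Igfbp7 promoter, chr5:77408046-77408295, - strand: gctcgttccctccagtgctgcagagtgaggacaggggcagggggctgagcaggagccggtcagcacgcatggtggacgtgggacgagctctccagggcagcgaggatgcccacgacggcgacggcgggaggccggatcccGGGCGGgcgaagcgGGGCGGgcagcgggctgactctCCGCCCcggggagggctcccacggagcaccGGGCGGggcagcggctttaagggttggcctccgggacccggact
Igf1 promoter, chr10:87860861-87861110, + strand: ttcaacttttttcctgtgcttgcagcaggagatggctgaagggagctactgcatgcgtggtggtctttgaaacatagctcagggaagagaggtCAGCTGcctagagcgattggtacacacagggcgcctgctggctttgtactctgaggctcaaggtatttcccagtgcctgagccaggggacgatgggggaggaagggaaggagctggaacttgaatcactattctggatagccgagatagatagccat

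Each line runs 5′ to 3′ over the 250 bases before the start. Neither CACGTG, the site that MAX pairs are known to prefer, nor its variant CACGCG was present in any of the 8 windows, on either strand. Among all 32851 promoters of the table, 6.02% held CACGTG and 7.62% held CACGCG in the same window. Igfbp5 had 1 general E-box, which starts 77 bases before the start site, and Igf1 had 1, which starts 157 bases before it. Igfbp3 also had 1, which starts 172 bases before the start site, and 1 of the 4 Igf2 windows had 2. A CANNTG match is common, since 66.2% of all promoters held at least 1. Igfbp7 had no CANNTG and 4 GC boxes, which 32.7% of promoters held at least once. Its window held 26 CG pairs, that of Igfbp5 held 10 and that of Igf1 held 5, against a median of 6 over all promoters. CANNTG includes CACGTG, so these searches overlap. A match shows letters only, and the absence of one says only that those letters are not in this window.

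The ligands came first in the comparison. Igf1, which encodes the growth hormone dependent ligand IGF-I, read 0.784 in the Mxi1 -/- kidney and 1.04 in the Mxi1 +/+ kidney on probe 13247. The Mxi1 -/- value was 1.33-fold lower, a log2 difference of -0.41. Igf1 lies on chromosome 10, and its single probe does not separate its splice forms.

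Igf2, which encodes the fetal growth factor IGF-II, read 46.5 in the Mxi1 -/- kidney and 51.5 in the Mxi1 +/+ kidney on probe 13255. It was 1.11-fold lower, a log2 difference of -0.15. Igf2 lies on chromosome 7, and both readings were far above the noise floors of 0.156 for the Mxi1 -/- array and 0.102 for the Mxi1 +/+ array. A floor is 3 times the root mean square of an array's values below 0. A reading above it stands clear of the array's own scatter around 0.

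Among the binding proteins, Igfbp3 encodes the main carrier of IGFs in blood. It read 2.31 in the Mxi1 -/- kidney and 2.56 in the Mxi1 +/+ kidney on probe 10485, which is 1.11-fold lower, a log2 difference of -0.14. Igfbp3, on chromosome 11, and Igf2 therefore had almost the same difference, with a gap of -0.0032 for Igf2 minus Igfbp3.

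Igfbp5, which encodes a binding protein that is held in extracellular matrix, showed the largest fold of the 5. It read 0.338 in the Mxi1 -/- kidney and 0.700 in the Mxi1 +/+ kidney on probe 18441. The Mxi1 -/- value was 2.07-fold lower, a log2 difference of -1.05, so it lay just past the line of size. Both readings were low. The Mxi1 -/- reading was 2.17 times its floor and the Mxi1 +/+ reading 6.85 times its own. Among measured genes below the median level, 11.3% were at least 2-fold lower, but that pool includes far dimmer probes. In the decile of mean level that holds Igfbp5, 3.31% of genes were at least as low as Igfbp5. Igfbp5 lies on chromosome 1.

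Igfbp7, which encodes a secreted, IGFBP-related protein of low IGF affinity known from vessel walls and basement membrane, had the brightest probe of the 5. It read 549 in the Mxi1 -/- kidney and 763 in the Mxi1 +/+ kidney on probe 2730, which is 1.39-fold lower, a log2 difference of -0.47. Igfbp7 lies on chromosome 5. On the Mxi1 -/- array 12 probes were at least as bright, itself included, and on the Mxi1 +/+ array 3 were. The highest readings were 884 on the Mxi1 -/- array and 778 on the Mxi1 +/+ array. The table carries no saturation marks, so whether the Mxi1 +/+ reading is limited by the scanner was not tested.

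**Figure D1:**
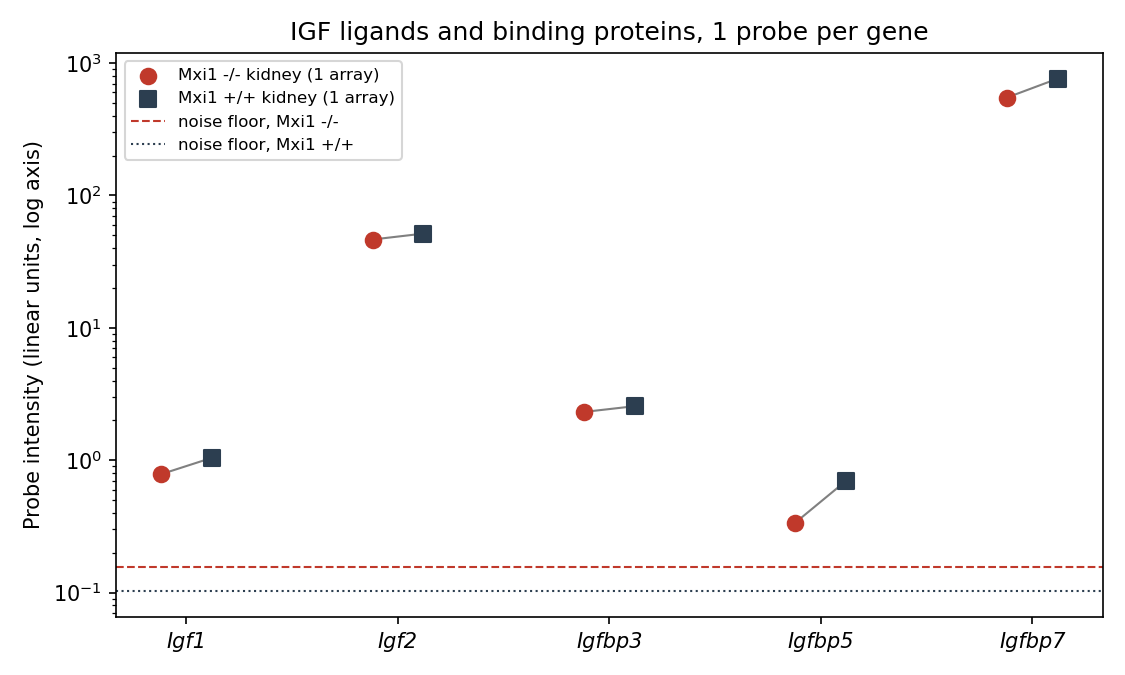
Probe intensity on a log axis for the 5 genes, 1 probe each, with the Mxi1 -/- array as red circles, the Mxi1 +/+ array as dark squares and the noise floors as horizontal lines. All 5 circles lie below their squares, with the widest step at Igfbp5 (0.338 in Mxi1 -/- and 0.700 in Mxi1 +/+), and all 10 readings lie above their floors.

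How far a difference stands from array noise depended on the reading. The only error available is technical: the scatter between pairs of probes for the same gene on these arrays. At or above the median level, 41 genes with a pair of probes gave a standard deviation of 0.17 per probe for the log2 difference. Igfbp7 stood 2.84 of these standard deviations below 0, while Igf2 and Igfbp3 stood within 1. From the median level down to 2 log2 units below it, 11 genes with a pair of probes gave 0.47. Against that, Igfbp5 stood 2.23 standard deviations below 0 and Igf1 less than 1. That range of levels was chosen after the data were seen, and over all 40 genes with a pair of probes below the median level the standard deviation was 0.96, close to the size of the Igfbp5 difference.

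The members were next set against each other. In none of the 10 pairs did the log2 differences lie more than 2 standard deviations of such a gap apart. The widest gap was 0.91, for Igfbp3 minus Igfbp5, or 1.82 standard deviations. Igfbp7 and Igf1 differed by 0.06. The order from Igfbp5 through Igfbp7, Igf1 and Igf2 to Igfbp3 is therefore not resolved at this precision, between neighbours or between its ends. Gaps that involve Igfbp5 or Igf1 rest on the 0.47 of the range chosen after the data were seen.

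Genes of similar level give a second measure. In each decile of measured genes by mean level, the central 95% of log2 differences marked the usual range on these 2 arrays. All 5 members lay inside their ranges. Igfbp5 came closest to its edge, at -1.05 in a range of -1.10 to 0.82 over the 998 genes of its decile. Igfbp7 stood at -0.47 in a range of -0.64 to 0.46, and 5.31% of the 999 genes in its decile were at least as low. For Igf1 that share was 15.7%, for Igf2 31.6% and for Igfbp3 38.1%. The top decile is broad, so the 100 brightest genes were also taken, a choice made after the values were seen. Their median was -0.01 and their standard deviation 0.22, and 4 of them, Igfbp7 included, were at or below the difference of Igfbp7. Of the 20 brightest, 2 were at or below it, Igfbp7 included, and the other stood at -0.51.

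**Figure D2:**
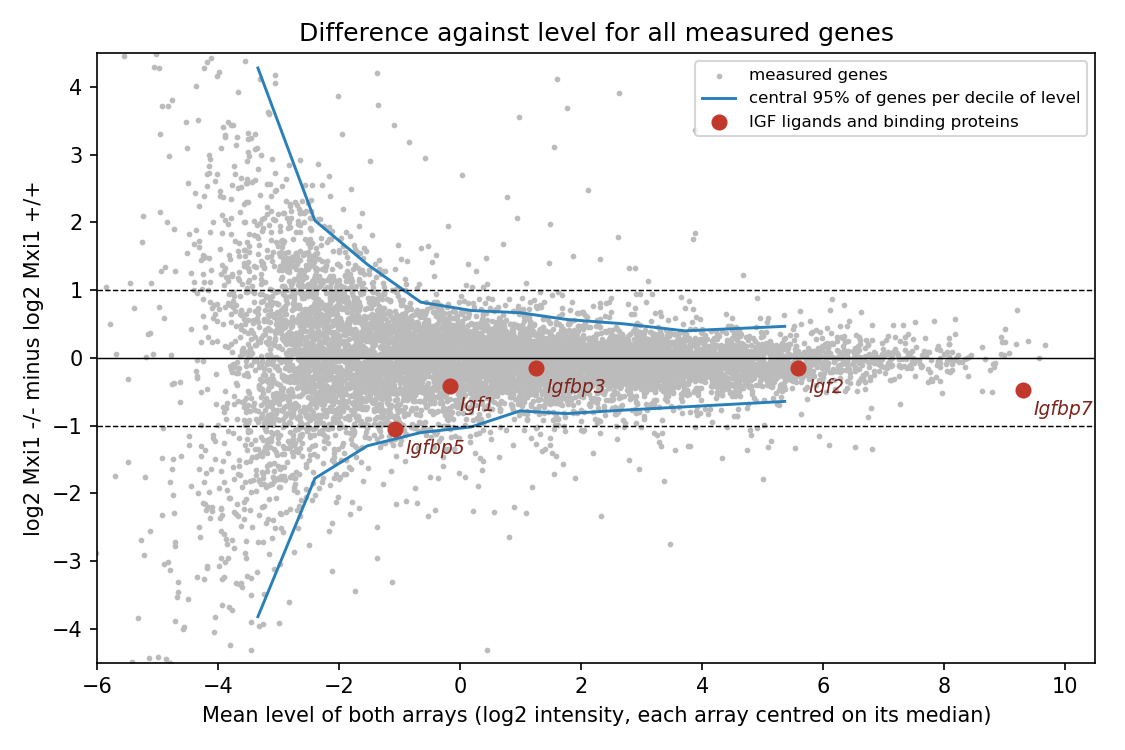
Log2 difference, Mxi1 -/- minus Mxi1 +/+, against the mean log2 level of both arrays for all measured genes in grey (38 lie outside the axes), with the central 95% of genes in each decile of level as blue lines drawn at the deciles' medians. The 5 IGF ligand and binding protein genes, in red, all lie below 0 and inside the range of their decile. Igfbp7 sits at the bright end, to the right of the last point of the blue lines.

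Mxi1 itself read 1.69 in the Mxi1 -/- kidney and 4.31 in the Mxi1 +/+ kidney, 2.54-fold lower, the direction its label gives. The Mxi1 -/- array thus kept a clear signal on this probe, above its median intensity of 0.935, and the probe's place relative to the deletion is not given, so the label is checked in direction only. All 8 measured proximal tubule markers of the labelled tissue read above the floors in both arrays, with 4 higher and 4 lower in Mxi1 -/-.

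To place the 5 members, 11 gene lists with 116 measured genes were read, members left out. Of these lists 1 is the MYC, MAX and MXD network, with 11 measured genes that include Mxi1. The others cover the wider IGF system. In the Mxi1 -/- kidney 56 of the 116 genes read higher and 60 read lower. Their median log2 difference was -0.02, while that of the members was -0.41. Past 2-fold, 7 were higher (6.03%, against 5.77% of all measured genes) and 5 lower (4.31%, against 5.59%), so both shares lay near the background. Only 4 of those 12 genes had both readings above the floors, namely Socs3, Peg12, Stc1 and Mxi1.

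The list of other binding proteins and the acid-labile subunit had 4 of 6 measured genes lower and 2 higher, with a median of -0.31 and none past 2-fold. Igfbp4, a binding protein of many tissues, read 43.7 in the Mxi1 -/- kidney and 37.7 in the Mxi1 +/+ kidney (1.16-fold higher), and Igfbp1, the insulin-regulated binding protein of liver, was 1.21-fold higher. Igfbp6, which prefers IGF-II, read 0.283 in the Mxi1 -/- kidney and 0.435 in the Mxi1 +/+ kidney (1.54-fold lower). Igfbp3 and Igfbp5 form a large blood complex with the acid-labile subunit encoded by Igfals, which read 4.67 in the Mxi1 -/- kidney and 7.83 in the Mxi1 +/+ kidney. That is 1.68-fold lower, and 5.26% of genes at or above the median level were at least 1.5-fold lower. The IGFBP-like genes Igfbpl1 and Esm1 were 1.19-fold and 1.29-fold lower.

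Receptors and rival ligands of Igf1 and Igf2 gave few readings. Insr, the insulin receptor, read 0.731 in the Mxi1 -/- kidney and 0.652 in the Mxi1 +/+ kidney (1.12-fold higher), and its relative Insrr was 1.26-fold lower. Both lay below the median level. Igf1r and Igf2r were not analysed here. Ins2, an insulin gene next to Igf2, was 1.32-fold lower at 0.298 in the Mxi1 -/- kidney and 0.392 in the Mxi1 +/+ kidney.

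The growth hormone axis, which drives Igf1, had 4 of 11 measured genes higher and 7 lower, with a median of -0.11. Ghr, the growth hormone receptor, read 35.1 in the Mxi1 -/- kidney and 32.9 in the Mxi1 +/+ kidney (1.07-fold higher), and Socs2, a growth hormone induced inhibitor, was 1.08-fold lower. The signal carriers Jak2, Stat5a and Stat5b were 1.01-fold, 1.11-fold and 1.27-fold lower. Socs3, another inhibitor of cytokine receptors, was past 2-fold, at 0.762 in the Mxi1 -/- kidney and 0.307 in the Mxi1 +/+ kidney (2.49-fold higher). It lay below the median level, and 5.31% of genes in its decile of level differed at least as far in either direction. Cish was 1.32-fold higher, Socs1 1.10-fold lower, and Sst read 0.213 in both kidneys. Gh lay under the floor in both kidneys and Ghrh under that of Mxi1 -/-.

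Proteases that release IGFs from binding proteins, with their inhibitors, had 10 of 16 genes higher and 6 lower (median 0.11). Stc1, whose product inhibits the protease PAPP-A, read 0.466 in the Mxi1 -/- kidney and 0.954 in the Mxi1 +/+ kidney (2.05-fold lower). It too lay below the median level, and 5.01% of genes in its decile differed at least as far in either direction. Htra1, a serine protease that cuts IGFBP5, was 1.25-fold lower. Mmp3 and Mmp19 lay under the floor of Mxi1 +/+, and their Mxi1 -/- readings of 0.313 and 0.187 were 3.06 and 1.83 times that floor. In their deciles of level, 2.51% and 38.5% of genes differed at least as far in either direction. Known partners of IGFBP3 and IGFBP5 had 4 of 10 genes higher and 6 lower. Among them the endocytic receptor Lrp1 was 1.77-fold higher, the cofactor Fhl2 1.60-fold higher and the nuclear receptor Nr4a1 1.68-fold lower.

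Downstream of the ligands, signal transduction genes split evenly, with 17 higher and 18 lower of 35 (median -0.10). Ptpn1, a phosphatase of the insulin receptor, was 1.72-fold higher, and Eif4ebp1, an mTOR substrate that restrains translation, was 1.54-fold lower. All 3 genes past 2-fold in that list (Irs3, Irs4 and Pik3cd) had at least 1 reading under the floor. Imprinted growth genes, the group of Igf2, had 9 of 17 higher and 8 lower (median 0.07). Cdkn1c, a cell cycle inhibitor of the same imprinted region as Igf2, read 5.75 in the Mxi1 -/- kidney and 10.1 in the Mxi1 +/+ kidney (1.76-fold lower). Kcnq1, a channel gene of that region, read 2.43 in the Mxi1 -/- kidney and 1.32 in the Mxi1 +/+ kidney (1.83-fold higher), the opposite direction to Igf2. Igf2bp1 and Igf2bp3, which encode binders of Igf2 mRNA, read 0.144 and 0.190 in the Mxi1 -/- kidney, against 0.174 and 0.158 in the Mxi1 +/+ kidney. In Mxi1 -/-, Igf2bp1 lay under the floor of 0.156 and Igf2bp3 only slightly above it. CCN proteins, once classed with the binding proteins, had 3 of 5 genes higher, with Ccn2 at 1.41-fold.

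**Figure D3:**
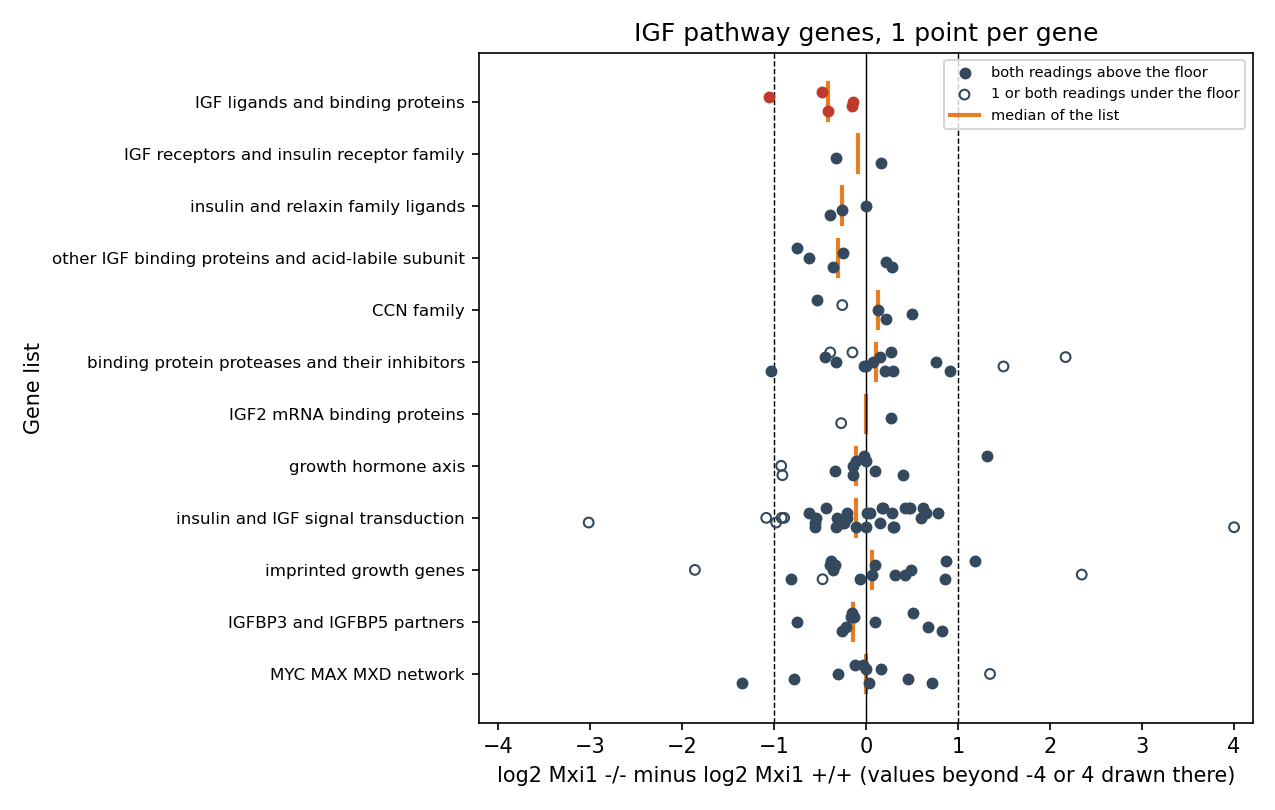
Log2 difference, Mxi1 -/- minus Mxi1 +/+, for each measured gene of the IGF pathway lists and the MYC, MAX and MXD network. The 5 IGF ligand and binding protein genes are in red at the top. Open circles are genes with 1 or both readings under the floor. An orange bar marks each median and dashed lines mark 2-fold. The 5 red points lie below 0 with a median of -0.41, while the medians of the other lists lie between -0.31 and 0.13.

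For each member, the pathway genes with the nearest log2 difference were found over this 1 pair of arrays. Igf1 (-0.41) was nearest to Ins2 (-0.40) and Adam28 (-0.39). Igfbp5 (-1.05) was nearest to Stc1 (-1.03) and Pik3cd (-1.08). Igfbp7 (-0.47) was nearest to Nnat (-0.47) and Adam12 (-0.45). Igf2 and Igfbp3 shared Mmp7 (-0.15) and Stat5a (-0.14). Adam28, Pik3cd, Nnat and Mmp7 lay under the Mxi1 -/- floor, so the size of their differences is not resolved. The Mxi1 +/+ reading of Pik3cd was 1.90 times that floor. Ins2, Stc1 and Adam12 read above the floors but below the median level, where array noise is larger.

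The members are made by several cell types of the kidney and its surrounding tissue, so marker lists were read beside them. In bulk tissue, fewer cells of a type and less RNA per cell cannot be told apart. Over 10 lists with 91 measured genes, 21 read at least 2-fold lower (23.1%, against 5.59% of all measured genes). On the higher side 1 was past the line, with both readings under the floor. Of the 21, 18 had both readings above the floors and 3 had 1 reading under. Among markers at or above the median level, 15 of 72 were at least 2-fold lower, against 80 of 5737 measured genes there. The lists were chosen with earlier results of these data known, so these shares cannot serve as a test. Adipocyte markers, of fat cells that are a known source of Igf1, had 8 of 9 genes lower, 7 of them at least 2-fold, with a median of -1.83. Their summed reading was 89.1 in the Mxi1 -/- kidney and 257 in the Mxi1 +/+ kidney. Fabp4 alone gave 72.1 and 183 of these sums, while Lep read 4.83 in the Mxi1 -/- kidney and 4.86 in the Mxi1 +/+ kidney. Of the 9 adipocyte markers only Ucp1 lay under a floor, that of Mxi1 -/-, and it was at least 54.7-fold lower. Urothelial and stratified epithelial markers had 7 of 8 lower, 5 past 2-fold, a median of -1.99 and sums of 18.7 in the Mxi1 -/- kidney and 42.8 in the Mxi1 +/+ kidney. Those past 2-fold were Krt5, Krt19, Sprr1a, Sprr2a1 and Ly6d. The urothelial markers Upk1b and Upk2 were 1.02-fold higher and 1.32-fold lower. The part of these lists in the members' lower readings was not tested.

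Markers of cell types known for the binding proteins went different ways. Endothelial markers, which mark a main site of Igfbp3 and Igfbp7, had 6 of 11 higher and 5 lower (median 0.16), with sums of 73.8 in the Mxi1 -/- kidney and 75.0 in the Mxi1 +/+ kidney. They disagreed among themselves, with Pecam1 2.57-fold and Emcn 1.73-fold lower and Kdr 1.30-fold higher. Fibroblast markers had 7 of 12 lower, 3 past 2-fold, a median of -0.42 and sums of 35.7 in the Mxi1 -/- kidney and 39.6 in the Mxi1 +/+ kidney. Smooth muscle, pericyte and mesangial markers, cells known to make Igfbp5 and Igfbp7, had 6 of 9 lower, 2 past 2-fold, a median of -0.33 and sums of 39.9 in the Mxi1 -/- kidney and 54.9 in the Mxi1 +/+ kidney. Podocyte markers had 3 of 6 lower, 1 past 2-fold, a median of -0.01 and sums of 15.4 in the Mxi1 -/- kidney and 19.4 in the Mxi1 +/+ kidney. The 1 past 2-fold, Podxl, lay under the Mxi1 -/- floor, and its Mxi1 +/+ reading was 1.43 times that floor. In its decile of level 24.2% of genes differed at least as far.

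Macrophage markers, a further source of Igf1, had 7 of 10 higher, with sums of 56.5 in the Mxi1 -/- kidney and 42.6 in the Mxi1 +/+ kidney, the opposite direction to Igf1. Of the 7, Fcgr1 had both readings under the floors, so its direction is not resolved. On that list Itgam lay under the Mxi1 -/- floor, and its Mxi1 +/+ reading was 1.64 times that floor. In its decile of level 23.8% of genes differed at least as far. Proximal tubule markers had 4 of 8 higher and distal markers 4 of 7 higher, none past 2-fold. Collecting duct markers had 8 of 11 lower, 1 past 2-fold. The proximal sums were 940 in the Mxi1 -/- kidney and 631 in the Mxi1 +/+ kidney, of which Napsa alone gave 770 and 473. In the same order, the distal sums were 311 and 270 and the collecting duct sums 98.4 and 113. The part of these cell types in the members' readings was not tested.

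**Figure D4:**
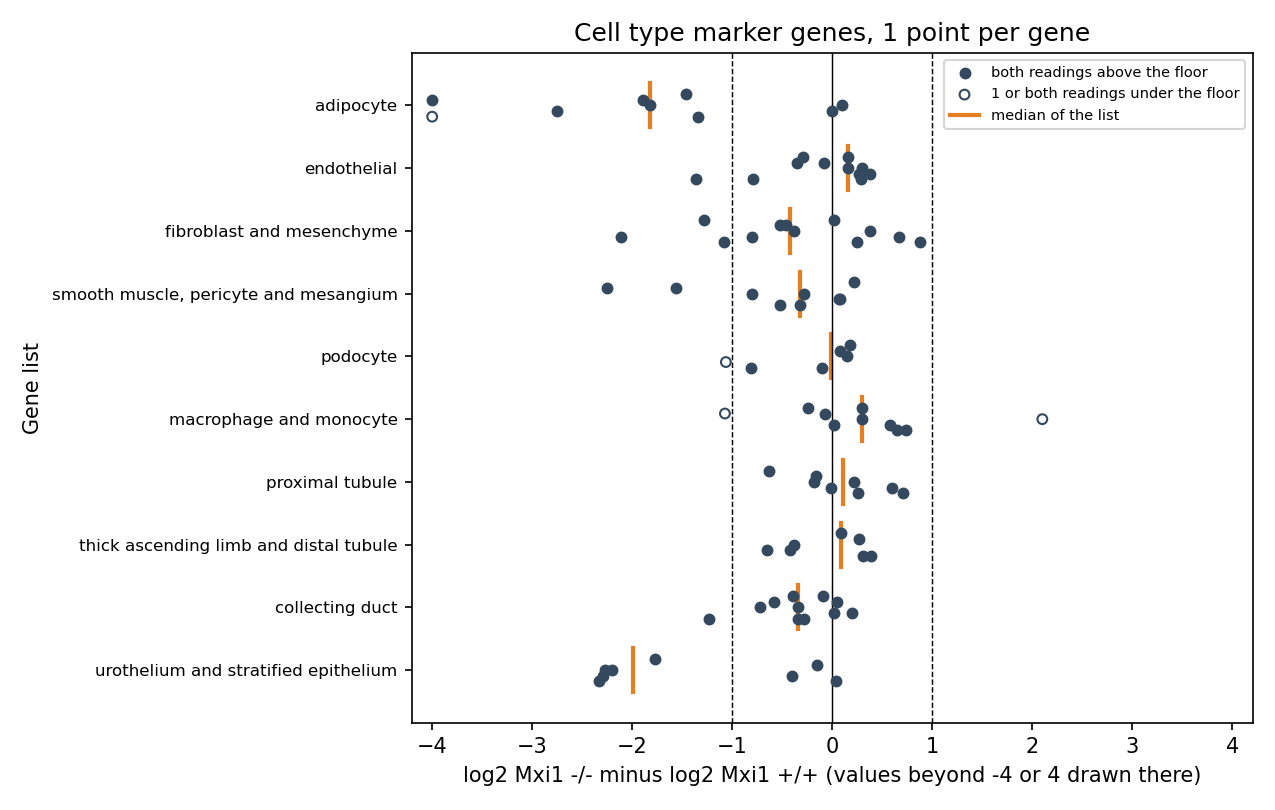
Log2 difference, Mxi1 -/- minus Mxi1 +/+, for each measured gene of 10 cell type marker lists, with open circles for genes with 1 or both readings under the floor, an orange bar at each median and dashed lines at 2-fold. The adipocyte list (median -1.83) and the urothelium and stratified epithelium list (median -1.99) have medians far below 0, while the endothelial median is 0.16. Both of the low lists also hold genes near 0.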

How the data were processed

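Linear probe intensities were used as the authors deposited them. Per the labels' protocols, DNase-treated total RNA was amplified into biotin-labelled cRNA with a kit for CodeLink arrays. How they were scanned, background-corrected and normalized is not given in the sources. The code -9999 (39 values in Mxi1 -/-, 60 in Mxi1 +/+) was read as missing.

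No pseudocount was added before log2, and the median of the 19663 probes positive on both arrays was subtracted from each. The platform annotation named 1 gene for 10349 probes and none for the other 9940. All 10349 gene identifiers matched the RefSeq table (GRCm38.p6). A gene with several probes took the one with the highest mean level. This left 9985 measured genes, 5737 of them at or above the median level of all probes. Differences are Mxi1 -/- minus Mxi1 +/+. Folds were counted at 2-fold, and where 1 reading lay under its noise floor a bound against that floor is given. Such a bound leaves out the error of the other reading.

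Genes could be named if they were members, Mxi1, measured receptor, binding protein, mRNA binding protein or growth hormone axis genes, the pathway genes nearest to a member, or, of each other list, past 2-fold or among the 4 others of largest difference at or above the median level. The members and lists were chosen with earlier results of these data known. The number of arrays limits the precision. Alternatives were no centring, quantile normalization, lowess, a pseudocount, the floor, probe averaging, a 1.5-fold line and a level filter. The code was tested on simulated data with known shifts. Software was matplotlib 3.10.9, statsmodels 0.14.6, NumPy 2.4.6 and pandas 2.3.3 under Python 3.11.15.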

Additional observations from a re-analysis of the deposited data

How the results depend on the processing

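No paired analysis was possible because each genotype has 1 array, and no array could be left out for the same reason. All 5 members read lower under every one of the 6 alternatives run on them (no centring, quantile normalization, lowess, pseudocount, noise floor and probe averaging). Probe averaging could not change a member, since each has 1 probe. No centring and the noise floor could only shift all members by a common small amount, since all 10 readings lay above the floors. Over the 6 alternatives, Igf1 ranged from -0.43 to -0.21 and Igf2 from -0.16 to -0.09 on the log2 scale. Igfbp3 ranged from -0.16 to -0.10 and Igfbp7 from -0.57 to -0.47. Igfbp5 stayed past 2-fold at up to -1.11, except when each array's median was added as a pseudocount, which by construction shrinks dim probes most and gave -0.37. The gap between the highest and lowest member was then 0.37.

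Counts past the line of size depended on dim genes. For the pathway genes, 7 higher and 5 lower as reported became 3 and 2 with the noise floor, 0 and 1 (Mxi1) among genes at or above the median level, 0 and 1 with the pseudocount, and 18 and 16 at a 1.5-fold line. Quantile normalization and lowess each gave 10 lower, for a cause that was not tested. For the marker genes, 1 higher became 7 at 1.5-fold and 0 with the level filter or the pseudocount. The 21 lower became 28 at 1.5-fold, 19 with the noise floor, 15 with the level filter and 14 with the pseudocount, and stayed at 21 otherwise. With 1 mouse per genotype, no setting can show whether a difference exceeds variation between animals, and dim probes such as those of Igfbp5 and Igf1 carry the larger array noise.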
